A study of Mus musculus with 8 samples.

Results

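Dppa2, Dppa3, Dppa4, Dppa5a, L1td1, Utf1, Fbxo15 and Tcl1 are genes whose transcripts are known from pluripotent cells and the early embryo. The 8 genes were taken from a list of names, and every probe set annotated to 1 of them alone was read, which gave 11 probe sets among 45037 and 8 genes among 18193. Dppa2 had 2 probe sets, Utf1 had 3, and each of the other 6 genes had 1. RNA was measured on Affymetrix mouse whole-genome arrays in wild-type cells of 3 kinds. Embryonic stem (ES) cells of the V6.5 line (3 arrays) had been kept on irradiated feeder fibroblasts and then passaged without them on gelatin. Neural precursor cells (NPC, 3 arrays) had been derived from ES cells in culture by way of embryoid bodies and were maintained with growth factors. Mouse embryonic fibroblasts (MEF, 2 arrays), the cell type that also served as feeders, were the third group. Whether replicate arrays stem from independent cultures is not given in the labels, and the p-values therefore cover only array-to-array spread, possibly a technical one.

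Several of these genes act on chromatin. Dppa2 and Dppa4 encode partner proteins with a SAP domain that bind DNA together, and they are known for keeping developmental promoters free of DNA methylation and for switching on genes of the early cleavage embryo. Dppa3, also called Stella, protects the maternal genome from loss of methylation after fertilisation and marks primordial germ cells, and Utf1 is a chromatin-bound cofactor at developmental genes and a target of Pou5f1 and Sox2. The others work elsewhere in the cell: Dppa5a and L1td1 bind RNA, Fbxo15 is the substrate-binding subunit of a ubiquitin ligase, and Tcl1 is a co-activator of the kinase Akt.

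All 8 genes were high on every ES array and close to the bottom of the scale on every NPC and MEF array. Their log2 differences ran from -8.12 to -5.03 in NPC and from -8.11 to -5.13 in MEF against ES cells (limma, quantile-normalized log2(intensity + 16), on which an intensity of 0 is 4). Calls required a limma adjusted p below 0.05 together with a log2 difference of 1 or more in either direction. By this rule 8 of 8 were lower in NPC, against 12.9% of all genes tested, and 8 of 8 were lower in MEF, against 12.8% of all genes. Both held for 8 of 8, against 7.77% of all genes. Higher values were called for 10.0% of all genes in NPC and 12.2% in MEF. With the arrays centred on their medians, 9.18% of all genes were lower in MEF, and with the deposited scaling 6.20%. Of the MEF calls, 48.9% were higher, against 65.1% and 79.4% under these scalings. The 8 genes were called lower under each. All ES arrays lay above all NPC and MEF arrays for the 8 genes and for 21.7% of all genes.

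**Figure D1:**
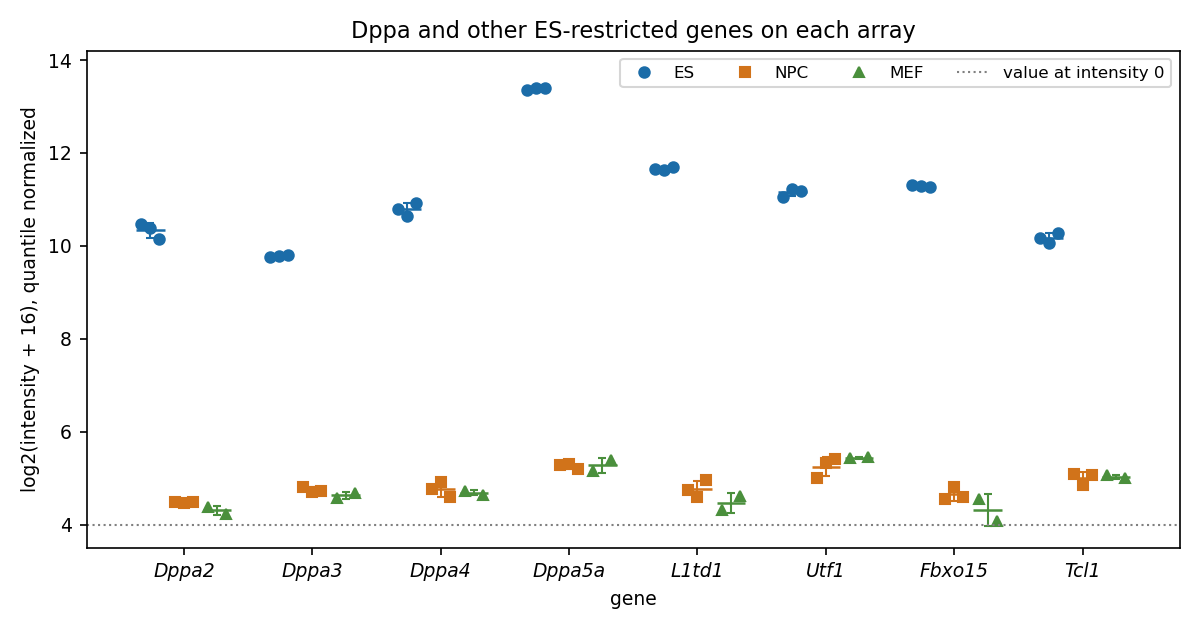
Quantile-normalized log2(intensity + 16) of each gene (x axis) on each array, with points for arrays, lines for group means and bars for the SD (ES n = 3, NPC n = 3, MEF n = 2). The ES points lie between 9.76 and 13.41 and the NPC and MEF points between 4.07 and 5.45.

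Promoter sequence was available to set beside these values for L1td1, Utf1 and Tcl1, which fell together from ES cells to both other cell types. The 250 bases before the annotated start (RefSeq, GRCm38.p6) are printed 5′ to 3′ on the gene's strand. Capitals mark the GC box GGGCGG or its reverse complement, the site of Sp1-type factors. L1td1 is at chr4:98726504-98726753 (plus strand), Utf1 at chr7:139943606-139943855 (plus strand) and Tcl1 at chr12:105222738-105222987 (minus strand).
L1td1: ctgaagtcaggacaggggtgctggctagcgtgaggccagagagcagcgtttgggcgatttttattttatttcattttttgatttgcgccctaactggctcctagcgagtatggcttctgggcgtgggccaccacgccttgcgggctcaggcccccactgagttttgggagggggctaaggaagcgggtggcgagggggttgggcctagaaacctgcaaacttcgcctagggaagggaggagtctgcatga
Utf1: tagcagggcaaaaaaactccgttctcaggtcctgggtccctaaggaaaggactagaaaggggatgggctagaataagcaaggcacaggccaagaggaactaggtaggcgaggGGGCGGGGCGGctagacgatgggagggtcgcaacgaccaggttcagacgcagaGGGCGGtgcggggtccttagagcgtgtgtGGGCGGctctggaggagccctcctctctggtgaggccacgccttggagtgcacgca
Tcl1: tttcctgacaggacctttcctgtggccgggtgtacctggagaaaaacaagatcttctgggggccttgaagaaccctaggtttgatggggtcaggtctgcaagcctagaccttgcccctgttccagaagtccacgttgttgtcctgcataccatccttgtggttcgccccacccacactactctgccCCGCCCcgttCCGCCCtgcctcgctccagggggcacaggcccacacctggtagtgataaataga

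On both strands, the Utf1 window held 4 GC boxes (the first 2 of them overlapping by a base), the Tcl1 window 2 and the L1td1 window 0, while 32.74% of 32851 windows of this length held at least 1. None of the 3 windows held the octamer ATGCAAAT bound by Pou5f1 (1.60% of all windows), TATAAA (12.37%) or CCAAT (33.85%), which says only that these letters are not in these windows. The windows held 11 (L1td1), 14 (Utf1) and 7 (Tcl1) CG dinucleotides, against a median of 6 over all windows. Fewer were held by 64.4%, 70.6% and 53.7% of all windows, so many windows held as many or more.

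The labelled cell types were checked on markers, read as normalized intensity summed over a list. The sum of 5 ES markers (Pou5f1, Nanog, Zfp42, Esrrb, Tdgf1) was 17840 to 18520 on ES arrays, 33.6 to 55.4 on NPC and 29.4 to 44.1 on MEF arrays, and all 5 were called lower in NPC and in MEF. Of 5 measured NPC markers, Nes, Pax6, Olig2 and Fabp7 were higher in NPC than in ES cells, and Sox2 differed by -0.98 and was not called. The NPC call of Pax6 (1.03) ended without NPC 1 (0.97), with the deposited scaling (0.98), with averaged probe sets (0.54) and with a pseudocount of 64 (0.78). In MEF against ES, Nes (2.96) and Fabp7 (2.07) were called higher too, and Sox2, Olig2 and Pax6 lower. There, the Fabp7 call ended with a pseudocount of 64 (0.93). The Pax6 call ended with that pseudocount (-0.97) and averaged probe sets (-0.77). The 6 fibroblast markers (Col1a1, Col1a2, Col3a1, Thy1, Postn, Twist1) summed to 272 to 280.2 on ES, 134 to 236 on NPC and 29700 to 30330 on MEF arrays. All 6 were called higher in MEF than in ES. In NPC against ES, 1 was called higher, Twist1 (1.83), and 3 lower, Col1a1, Col1a2 and Thy1. The 3 lower calls ended with a pseudocount of 64. That of Thy1 (-1.02) also ended with median centring (-0.94) and the deposited scaling (-0.96). It ended as well without ES 1 (-0.98), ES 3 (-0.93), NPC 2 (-0.89) or NPC 3 (-0.89). Sums of 6 macrophage markers (Lyz2, Cd68, Csf1r, Tyrobp, Ptprc, Cd53) were 334.5 to 348, 79.8 to 103 and 962 to 989, although the members went different ways. Cd68 made up most of the ES sum, with a mean log2 level of 8.13 in ES against 6.82 in MEF, and was called lower in MEF. Lyz2, Tyrobp, Ptprc and Cd53 were near the floor in ES (means of 4.12 to 5.00) and called higher in MEF. The Cd68 call ended with median centring (-0.92) and the deposited scaling (-0.60), and the Ptprc call with a pseudocount of 64 (0.91) and without probe sets of shared sequence (0.02). This last setting left out every probe set with a name ending in _a_at, _s_at or _x_at. Ptprc was read from an _a_at probe set, and whether its probes match other genes was not tested. Sums of 6 endoderm markers (Gata4, Gata6, Sox17, Afp, Ttr, Foxa2) were 214 to 254, 41.7 to 103 and 182 to 194. Against ES, Gata6 (-2.32) and Sox17 (-1.26) were called lower in NPC. In MEF, Sox17 was called lower (-1.04) and Afp higher (1.74), and Gata6 was not called (-0.09). The Afp call ended with pseudocounts of 1 (1.54) and 64 (0.68) and averaged probe sets (0.86). Both Sox17 calls ended with a pseudocount of 64 (-0.58 and -0.51), the MEF call also with the deposited scaling (-0.70). The MEF call ended too without ES 1 (-0.95), ES 3 (-0.99) or MEF 2 (-0.97). No marker was listed at 0 on all arrays of a group, and the part of other cell types in the results was not tested. Median log2 deposited intensity ran from 5.13 to 5.57 across arrays with both MEF arrays highest, and NPC 1 correlated less with the other NPC arrays (0.970 and 0.971 across genes) than they did with each other (0.9902). In bulk RNA, fewer cells of a type and less RNA per cell cannot be told apart.

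Of the chromatin genes, Dppa2 stood at 10.46, 10.39 and 10.15 on ES, 4.49, 4.47 and 4.48 on NPC and 4.37 and 4.24 on MEF arrays (log2 normalized intensity). ES 3 was the lowest of the ES arrays, and the gap from it to the nearest NPC array was 5.66. The log2 difference was -5.85 ± 0.14 (SE) in NPC, 57.9-fold lower (limma adjusted p = 6.13e-09), and -6.03 ± 0.15 in MEF, 65.3-fold lower (limma adjusted p = 1.64e-08). Its partner Dppa4 was at 10.80, 10.65 and 10.92 on ES, 4.76, 4.91 and 4.60 on NPC and 4.73 and 4.65 on MEF arrays. The gap between the lowest ES array and the highest of the others was 5.74. Dppa4 was 65.5-fold lower in NPC (log2 difference -6.03 ± 0.13, limma adjusted p = 5.54e-09) and 68.7-fold lower in MEF (-6.10 ± 0.15, limma adjusted p = 1.64e-08).

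Dppa3 was at 9.76, 9.79 and 9.79 on the ES arrays, 4.81, 4.70 and 4.73 on NPC and 4.58 and 4.68 on MEF arrays. The ES arrays were alike, with an SD of 0.020, and the other 5 arrays lay between 4.58 and 4.81. The fall was 32.8-fold in NPC (-5.03 ± 0.12, limma adjusted p = 6.65e-09) and 35.4-fold in MEF (-5.15 ± 0.14, limma adjusted p = 1.75e-08).

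Utf1 was read from the brightest of its 3 probe sets, at 11.06, 11.22 and 11.17 on ES, 5.01, 5.32 and 5.42 on NPC and 5.43 and 5.45 on MEF arrays. NPC 1 was the lowest array of its group and the MEF arrays were the upper end of the 5 non-ES arrays. Utf1 was 59.9-fold lower in NPC (-5.91 ± 0.13, limma adjusted p = 4.83e-09) and 52.6-fold lower in MEF (-5.72 ± 0.14, limma adjusted p = 1.64e-08). With the mean of its probe sets the log2 differences were -3.19 and -2.69, still called.

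Of the RNA-binding members, Dppa5a was at 13.35, 13.40 and 13.41 on the ES arrays, 5.28, 5.31 and 5.20 on NPC and 5.16 and 5.38 on MEF arrays. The fall was 278-fold in NPC (-8.12 ± 0.092, limma adjusted p = 2.60e-10) and 277-fold in MEF (-8.11 ± 0.10, limma adjusted p = 1.40e-09). L1td1, a protein derived from the first reading frame of the LINE-1 retrotransposon, was at 11.66, 11.64 and 11.69 on ES, 4.75, 4.58 and 4.95 on NPC and 4.31 and 4.62 on MEF arrays. It was 119-fold lower in NPC (-6.90 ± 0.14, limma adjusted p = 3.35e-09) and 147-fold lower in MEF (-7.20 ± 0.15, limma adjusted p = 1.07e-08).

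Fbxo15, whose locus served as a reporter in early reprogramming experiments, was at 11.32, 11.28 and 11.27 on the ES arrays, 4.54, 4.81 and 4.60 on NPC and 4.55 and 4.07 on MEF arrays. The MEF arrays differed by more than the ES arrays did (SD 0.34 against 0.024), with MEF 2 near the floor. Fbxo15 was 99.7-fold lower in NPC (-6.64 ± 0.15, limma adjusted p = 5.54e-09) and 127-fold lower in MEF (-6.98 ± 0.17, limma adjusted p = 1.64e-08). Tcl1, the Akt co-activator, was at 10.16, 10.06 and 10.27 on ES, 5.09, 4.86 and 5.08 on NPC and 5.06 and 5.00 on MEF arrays. The fall was 35.6-fold in NPC (-5.16 ± 0.13, limma adjusted p = 7.00e-09) and 35.1-fold in MEF (-5.13 ± 0.14, limma adjusted p = 2.14e-08).

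The size of the fall sorted the genes into overlapping neighbours. In NPC the order was Dppa5a, L1td1, Fbxo15, Dppa4, Utf1, Dppa2, Tcl1 and Dppa3. The 95% intervals of L1td1 (-7.21 to -6.59) and Fbxo15 (-6.98 to -6.30) overlapped, as did those of Fbxo15 and Dppa4 (-6.34 to -5.73). Those of Dppa4, Utf1 (-6.20 to -5.61) and Dppa2 (-6.16 to -5.54) overlapped each other. So did those of Tcl1 (-5.44 to -4.87) and Dppa3 (-5.31 to -4.76). The interval of Dppa5a (-8.33 to -7.91) overlapped none of these. On this scale the 8 falls ranked between 2 and 78 among all genes in NPC and between 2 and 49 in MEF. The order depends on the pseudocount. With a pseudocount of 1, the MEF differences were -9.34 for Fbxo15, -8.91 for L1td1 and -8.83 for Dppa5a, 649-fold, 481-fold and 455-fold.

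**Figure D2:**
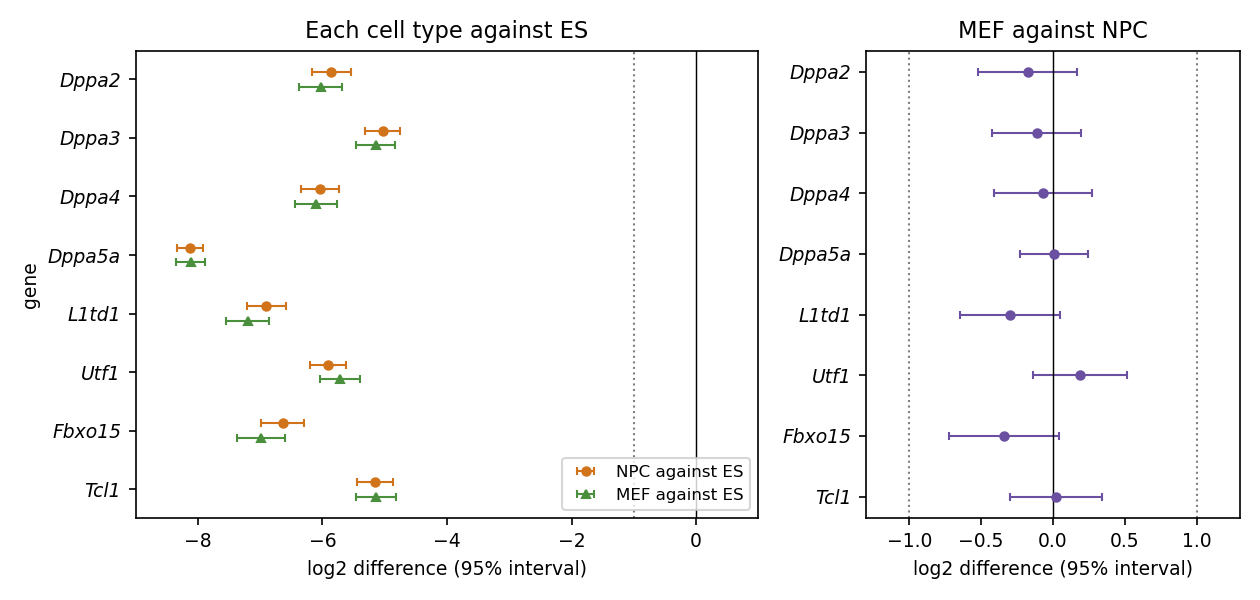
Log2 differences with 95% intervals from limma for NPC and MEF against ES cells (left) and MEF against NPC (right), one row per gene, with dotted lines at a log2 difference of 1 in size. Left, all points lie between -8.12 and -5.03. Right, every interval crosses 0 and none reaches 1 in size.

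MEF and NPC were compared to ask whether the 8 genes were equally low in both. None was called, against 7.95% of all genes called lower and 10.5% called higher (limma), and 0 of 8 had an unadjusted p under 0.05. The log2 differences (MEF minus NPC) ran from -0.34 for Fbxo15 (95% interval -0.73 to 0.040) to 0.19 for Utf1 (-0.14 to 0.51). The Fbxo15 difference moved with single arrays, to -0.58 without MEF 1 (limma adjusted p = 0.0417) and -0.10 without MEF 2 (limma adjusted p = 0.734). The Utf1 difference was 0.49 with the mean of probe sets (limma adjusted p = 0.0106), 0.56 with the deposited scaling (limma adjusted p = 0.0292) and 0.07 without NPC 1 (limma adjusted p = 0.598). These values stayed under the minimum size for a call. For Dppa5a the difference was 0.0078 (-0.23 to 0.24). These intervals leave room for differences of up to 0.73 on this scale, and with a pseudocount of 1 the Fbxo15 difference was -1.37 and not called, so the values do not show that the genes were equal. The 3 comparisons share arrays, and each is given here on its own.

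Places within an array do not depend on scaling between arrays. By the deposited intensity, Dppa5a lay at the 99.95 to 99.97 percentile of all probe sets on ES arrays and at the 47.0 to 51.7 percentile on the NPC and MEF arrays. Tcl1 lay at the 94.9 to 95.6 percentile on ES arrays and at the 38.7 to 45.3 percentile on the others, and L1td1 at 98.6 to 98.7 against 19.0 to 41.5. The brightest probe sets of the 8 genes lay at or above the 93.8 percentile on ES arrays and at or below the 52.9 percentile elsewhere.

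**Figure D3:**
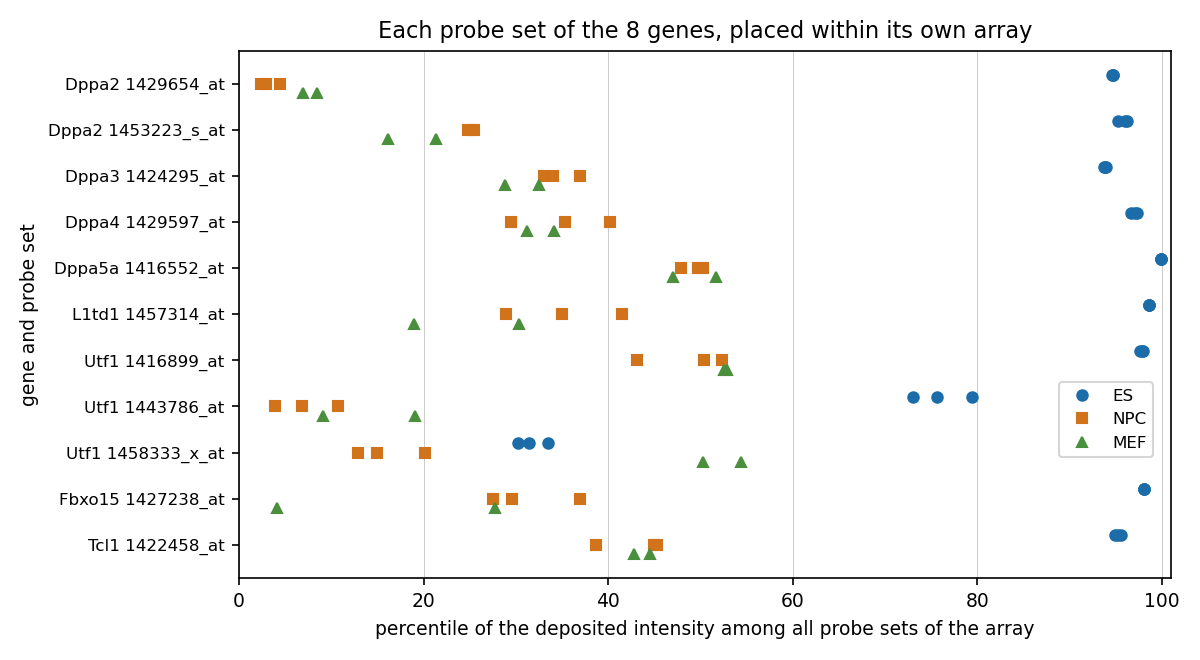
Percentile of the deposited intensity among all probe sets of the same array (x axis) for the 11 probe sets (y axis), 1 point per array. ES points lie at 93.8 or above for 9 probe sets, at 73.0 to 79.5 for the second Utf1 probe set and at 30.3 to 33.5 for the third, where the MEF points are highest.

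The further probe sets were fitted over all probe sets, of which 8.86% were called lower and 8.99% higher in NPC, and 9.54% lower and 9.82% higher in MEF. Between MEF and NPC 8.10% were called lower and 8.10% higher. The second Dppa2 probe set, 1429654_at, was at 10.00, 10.00 and 9.98 on the ES arrays, 4.07, 4.05 and 4.06 on NPC and 4.10 and 4.11 on MEF. Its differences of -5.94 ± 0.13 in NPC and -5.89 ± 0.14 in MEF (limma adjusted p = 2.88e-09 and 1.01e-08) were close to those of the other one, 1453223_s_at, while its ES arrays spread less, with an SD of 0.0091 against 0.17. The suffix _s_at marks probes shared between transcripts.

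The Utf1 probe sets disagreed with each other. Probe set 1443786_at was at 7.69, 7.29 and 7.04 on ES, 4.10, 4.07 and 4.14 on NPC and 4.31 and 4.12 on MEF arrays, a difference of -3.24 ± 0.20 in NPC and -3.13 ± 0.22 in MEF (limma adjusted p = 1.13e-06 and 3.44e-06). Probe set 1458333_x_at, whose suffix marks probes that can match other transcripts, was at 4.71, 4.62 and 4.65 on ES, 4.34, 4.17 and 4.21 on NPC and 5.31 and 5.53 on MEF arrays. It ran lowest in NPC and highest in MEF, without overlap. Neither difference from ES was called (-0.42 ± 0.14 in NPC, 0.76 ± 0.15 in MEF), whereas the MEF minus NPC difference of 1.18 ± 0.15 was (limma adjusted p = 0.000244).

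Within the ES group, the SD over the 3 normalized arrays ran from 0.020 for Dppa3 to 0.17 for Dppa2 on the brightest probe sets. For the Utf1 probe set 1443786_at it was 0.33. As deposited, ES 3 was the lowest ES array for 8 of 8 genes, and for 65.8% of all genes. After quantile normalization ES 3 was lowest for 2 of them, ES 1 for 3 and ES 2 for 3, close to the 35.1%, 31.8% and 33.1% of all genes.

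Genes that share a history or a partner with the 8 were read from lists. Of 13 measured genes also known for restriction to ES cells and the early embryo, 11 were called lower in NPC and 11 in MEF. None was higher, and 12.9% and 12.8% of all genes were called lower. Median log2 differences were -5.19 and -4.73 against -0.05 and -0.04 over all genes. Tdgf1, a Nodal co-receptor, differed by -8.61 in NPC and -8.52 in MEF, Lin28a, an RNA-binding protein that blocks let-7 processing, by -5.98 and -6.05, and Eras, an ES cell Ras protein, by -5.76 and -5.84. Pramel6 and Pramel7 were not called in either comparison, and both lay between 4.07 and 5.23 on all 8 arrays, ES included. In MEF against NPC, 0 of 13 were called (limma), against 7.95% of all genes called lower and 10.5% called higher. Of the 13, 2 had an unadjusted p under 0.05. These were Dnmt3l (0.77, limma adjusted p = 0.0033) and Lefty2 (0.53, limma adjusted p = 0.0365), both higher in MEF but under the minimum size for a call.

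Of 14 pluripotency transcription factors, 13 were lower in NPC and 14 in MEF (median -5.09 and -5.61), against 12.9% and 12.8% of all genes. The Tbx3 call in MEF (-1.24) ended with median centring (-0.79), the deposited scaling (-0.47) and the mean of probe sets (-0.72), and the Klf5 call (-2.63) without probe sets of shared sequence (-0.96). Klf5 was read from an _a_at probe set. Nanog differed by -7.49 in NPC and -6.74 in MEF, Pou5f1 by -7.36 and -7.54, and Zfp42 by -7.29 and -7.40. Between MEF and NPC, 4 of these factors were called, against 7.95% of all genes called lower and 10.5% called higher. Sox2 was lower in MEF (-5.53), as was Nr5a2 (-1.80), and Tbx3 (2.75) and Klf5 (2.38) were higher. The Nr5a2 call ended with pseudocounts of 1 (-1.47) and 64 (-0.78) and with the mean of probe sets (-0.83), and the Klf5 call with that mean (0.97) and without probe sets of shared sequence (0.76).

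Close relatives by sequence were read next. Of 8 measured relatives of Dppa5a and Tcl1, 2 were lower in NPC and the same 2 in MEF, against 12.9% and 12.8% of all genes. These were Ooep, a KH-domain protein of the oocyte, at -5.19 and -4.73, and Khdc3 at -2.92 and -2.63. Both are also in the list of ES-restricted genes. Khdc1a and Khdc1b stayed between 4.02 and 4.57 on all 8 arrays. The Tcl1 relatives Tcl1b1, Tcl1b3 and Tcl1b4 were not called in any comparison. Tcl1b1 lay between 5.08 and 5.94 and Tcl1b4 between 4.16 and 5.10 on all 8 arrays. Tcl1b3, read from an _x_at probe set, was at 9.72 to 9.76 on ES, 9.28 to 9.57 on NPC and 8.91 to 9.07 on MEF arrays. Mtcp1, read from an _a_at probe set, was lower in MEF than in NPC (-1.38). That call ended without probe sets of shared sequence (-0.05), with the deposited scaling (-0.70), with the mean of probe sets (-0.63) and with a pseudocount of 64 (-0.997).

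Partner and pathway genes formed a further list. Of 13 measured, 4 were lower and 1 higher in NPC, and 5 lower and 1 higher in MEF (median -0.16 and -0.44). Over all genes, 12.9% were called lower and 10.0% higher in NPC, and 12.8% lower and 12.2% higher in MEF. Akt1, the kinase that Tcl1 co-activates, was higher by 1.26 in NPC and by 2.51 in MEF, and by 1.26 in MEF against NPC. With the mean of probe sets its values of 0.55 in NPC and 0.74 in MEF against NPC were not called. Akt2 was not called (0.63 and 0.84). The Fbxo15 partners Skp1, Cul1 and Rbx1, the other subunits of its ligase, were not called in any comparison, nor were Uhrf1, a maintenance methylation factor that Dppa3 binds, and Dnmt1.

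Polycomb genes, which share targets with Utf1, were lower: Eed by -1.22 in NPC and -1.39 in MEF, Suz12 by -1.305 and -1.297, and Ezh2 by -1.09 in MEF alone among the calls. The difference of Ezh2 between MEF and NPC was -0.64 and not called (limma adjusted p = 0.00287). In MEF these calls ended with median centring (-0.92, -0.81 and -0.62) and the deposited scaling (-0.60, -0.48 and -0.29), and in NPC those of Eed (-0.61) and Suz12 (-0.94) ended with the mean of probe sets, as did that of Suz12 in MEF (-0.94). Lin28a, a partner of L1td1, is in this list too, and Lin28b was lower by -1.21 and -1.19. Both Lin28b calls ended without ES 1 (-0.91 and -0.89) and with a pseudocount of 64 (-0.49 and -0.48), and the MEF call also without MEF 2 (-1.01, limma adjusted p = 0.103).

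**Figure D4:**
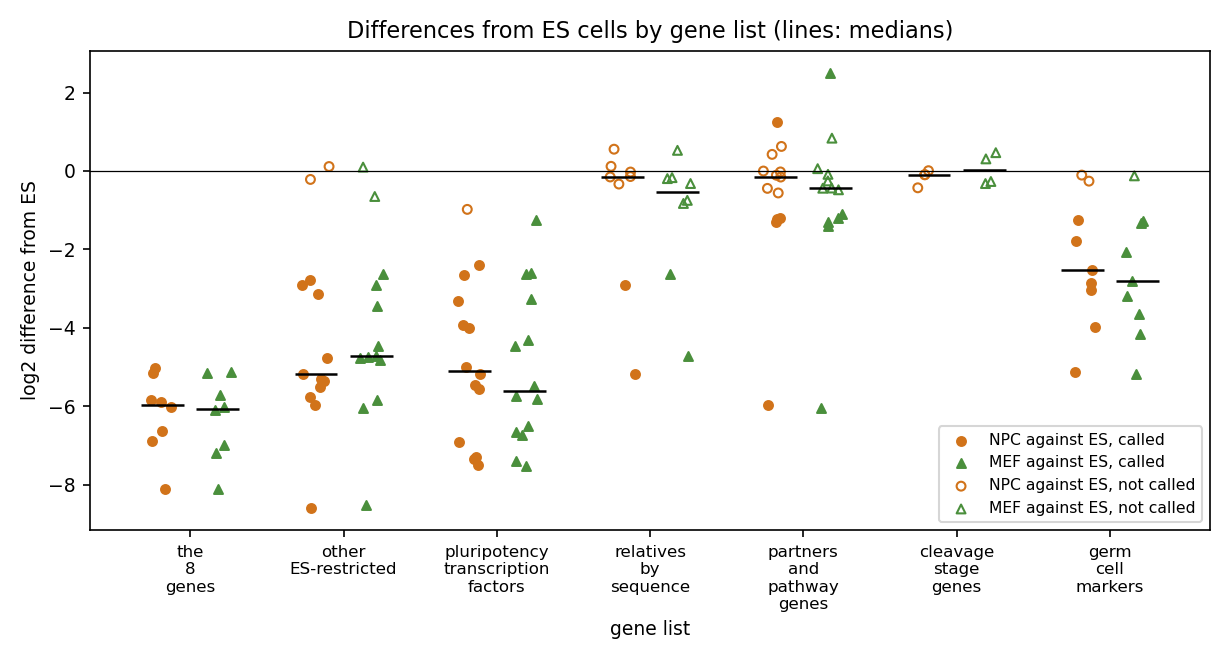
Log2 differences from ES cells in NPC (circles) and MEF (triangles) for the genes of 7 lists, filled where called (limma adjusted p under 0.05 and at least 1 in size), with lines at the list medians. Medians of the 8 genes are -5.97 and -6.07, those of the partners and pathway genes -0.16 and -0.44, and those of the cleavage stage genes -0.10 and 0.02.

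Genes of the cleavage embryo, which Dppa2 and Dppa4 are known to switch on, were near the floor in all groups. The 4 measured ones, Duxf3, Zfp352, Tcstv3 and Sp110, lay between 4.02 and 5.17 on all 8 arrays. None was called in any comparison (limma), and 1 of 4 had an unadjusted p under 0.05 in each. The other 6 genes of the list were not analysed here.

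Germ cell markers fell with the 8 genes. Of 9 measured, 7 were lower in NPC and 8 in MEF and none was higher (median -2.51 and -2.80). Over all genes, 12.9% and 12.8% were called lower. Sycp3, of the synaptonemal complex, differed by -5.12 in NPC and -5.19 in MEF, and Ddx4, a germ cell RNA helicase, by -3.99 and -3.64. Mael, of the piRNA pathway, differed by -3.04 and -3.20, and the receptor Kit by -2.85 and -4.17. The summed intensity of the list was 1786 to 2122 on ES, 147 to 283 on NPC and 75.4 to 80.0 on MEF arrays. The part of germ cells in the values of Dppa3 was not tested. Kit (-1.32) and Prdm1 (-1.07) were lower in MEF than in NPC, where the Kit call ended with the mean of probe sets (-0.82) and a pseudocount of 64 (-0.59). The Prdm1 call ended without NPC 1 (-0.63) and, at a limma adjusted p of 0.067 to 0.168, without any 1 of the ES and MEF arrays, as well as with median centring (-0.87), the deposited scaling (-0.53), a pseudocount of 64 (-0.71) and the compared groups fitted alone (limma adjusted p = 0.118). Against ES, the MEF call of Prdm1 (-1.33) ended without either MEF array (limma adjusted p = 0.066 and 0.0754), with the deposited scaling (-0.79) and with a pseudocount of 64 (-0.88), and those of Sycp1 and Mov10l1 ended in NPC and in MEF with a pseudocount of 64.

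The most similar patterns were sought among genes outside the 8, so the 8 were not compared with each other. The measure was the root mean square difference of log2 values over the 8 arrays, after each gene's own mean was taken off. Lin28a (0.13) and Lrrc34 (0.13) came nearest to Dppa2, and the same genes to Dppa4 (0.15 each). Tdrd12 (0.086) and Tfap2c (0.15) were nearest to Dppa3, Tdgf1 (0.23) and Pou5f1 (0.40) to Dppa5a, and Zfp42 (0.19) and Pou5f1 (0.25) to L1td1. Nearest to Utf1 were Eras (0.14) and Lin28a (0.15), to Fbxo15 Trap1a (0.20) and Epcam (0.22), and to Tcl1 Rnf17 (0.10) and Tdrd12 (0.17). These pairings are descriptions of 8 arrays in 3 groups that stand far apart.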

How the data were processed

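The authors deposited linear signal intensity for every probe set of the 8 arrays. Their software was GCOS 1.4, per the submitters' processing notes, while the summary method and any scaling are not given in the sources used here. Of 45101 probe sets, 64 controls were dropped, and 34945 of the other 45037 carried 1 gene symbol in the platform annotation, 932 several and 9160 none. Each gene was read from its brightest probe set, on log2(intensity + 16) after quantile normalization. The tests came from limma 3.58.1 (R 4.3.3), in 1 linear model of all 8 arrays with a variance trend and Benjamini-Hochberg adjustment over all 18193 genes, or all probe sets. For each of the 8 genes the falls were larger with a pseudocount of 1 than on this scale. The number of arrays limits the precision. The procedure was tested on simulated data.

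The genes, lists and tests were chosen with earlier results of these data known. Named genes were the 8, cell type markers and up to 3 called genes per list and direction with the largest differences. For each of the 8, the 2 nearest patterns among genes outside the 8 were named too. The fixed lists overlap. Exceptions are the uncalled genes, the further called genes Ezh2, Lin28b, Sycp1, Mov10l1, Dnmt3l and Lefty2, and the chromosome neighbours, named after their values were seen. The labels do not say that a replicate number pairs arrays, so replicate numbers were not used as pairs. Same-numbered arrays of different groups did not deviate together (correlations of -0.020 to 0.023). The deviations of the 2 MEF arrays mirror each other by construction, which limits this check. Alternatives were other scalings, pseudocounts, filters, probe set summaries and models, and leaving out each array.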

Additional observations from a re-analysis of the deposited data

Results flagged for a closer look

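The third probe set of Utf1, 1458333_x_at, differed between the lineage-restricted cell types in opposite directions from ES cells. The arrays lay at 4.62 to 4.71 in ES, 4.17 to 4.34 in NPC and 5.31 to 5.53 in MEF (log2 normalized intensity), and the MEF minus NPC difference was 1.18 (95% interval 0.84 to 1.52, limma adjusted p = 0.000244). The other Utf1 probe sets had MEF minus NPC differences of 0.19 and 0.11, neither of them called.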

How the results depend on the processing

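All 8 genes stayed called lower in NPC and in MEF under each of 19 alternatives, and 0 were called between MEF and NPC under any. Their log2 differences ranged from -8.84 to -3.19 in NPC and from -9.34 to -2.69 in MEF, with Utf1 under the mean of its probe sets at the small end. Between MEF and NPC some uncalled differences changed sign: Tcl1 with median centring (-0.026), Dppa3 and Dppa4 with the deposited scaling (0.11 and 0.17) and Dppa2 without probe sets of shared sequence (0.047). Leaving out single arrays, Fbxo15 went between -0.58 and -0.10, L1td1 between -0.46 and -0.14, Dppa4 between -0.15 and 0.0082, Tcl1 between -0.052 and 0.062, and Dppa5a between -0.10 and 0.12. Counts over all genes moved with a pseudocount of 64 (2638 in NPC against ES, 2948 in MEF against ES, 2110 in MEF against NPC), with no minimum difference (8530, 8447 and 7145) and, for MEF against NPC, with the deposited scaling (5101, of which 87.6% higher, against 3359 and 56.9%, and 74.2% with median centring). With the deposited scaling the median of all genes was 0.32 in MEF against ES, where it had been -0.04, and 0.43 in MEF against NPC, where it had been -0.01. With the replicate number as a block the counts were 4186, 4564 and 3357, against 4173, 4554 and 3359, and no call of the 8 genes changed, although the MEF minus NPC difference of Dppa5a was then -0.0033. Of 148 called results of other named or listed genes, 105 held under every alternative that gave a value and 0 reversed. Where no value shows it, the cause was not tested. Signal over background could not be judged, as no detection calls were used.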

Other observations

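Chromosome neighbours were looked at after the values above had been seen. In the RefSeq order of protein-coding genes (GRCm38.p6), Dppa4 and Dppa2 are next to each other, with Morc1, a germ cell chromatin gene, on the other side of Dppa2. Dppa3 lies between Gdf3 and Nanog, Dppa5a next to Ooep, and Tcl1 next to Tcl1b4. Morc1 was at 9.63, 9.38 and 9.59 on the ES arrays and between 4.02 and 4.24 on the other 5, a log2 difference of -5.48 ± 0.15 in NPC and -5.39 ± 0.16 in MEF (limma adjusted p = 1.16e-08 and 3.59e-08). Gdf3, a TGF-beta family ligand, differed by -5.30 and -4.76.

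Of 13 measured neighbours that are not among the 8 genes, 7 were lower and 1 higher in NPC, and 5 lower and 0 higher in MEF. Over all genes, 12.9% were called lower and 10.0% higher in NPC, and 12.8% lower and 12.2% higher in MEF. Gdf3, Nanog, Ooep, Morc1 and Kndc1 were lower in both, and Patj (-1.83) and Kank4 (-1.05), which flank L1td1, in NPC. The Kndc1 calls (-1.81 and -1.71) and the Patj call were lost both on averaging probe sets and at a pseudocount of 64. The Kank4 call was lost without ES 3 (-0.94), without NPC 2 (-0.97), with median centring (-0.95), the deposited scaling (-0.97) and a pseudocount of 64 (-0.61). Of the neighbours of Fbxo15, Cyb5a was not called (0.05 and 0.10), and Timm21 was higher in NPC by 1.16. Between MEF and NPC, Patj was higher in MEF (1.74) and Timm21 lower (-1.33), against 10.5% of all genes called higher and 7.95% lower. This Patj call ended with averaged probe sets (0.43) and a pseudocount of 64 (0.76). That of Timm21 ended with median centring (-0.77) and the deposited scaling (-0.42). Patj differed by -0.08 in MEF against ES. Neighbours of a gene are few and 4 of them (Gdf3, Nanog, Ooep, Tcl1b4) were already in the lists above, so these counts are a description.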
